A study of Homo sapiens with 12 samples.

Results

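The 10 genes described here encode the nuclear receptors that run much of the metabolism of the liver: NR1H4, NR0B2, NR5A2, NR1H3, NR1I2, NR1I3, PPARA, PPARG, RXRA and ESRRA. They were chosen by name, with earlier results of these data known, and all 10 were found among the 23583 features of the count table. RNA sequencing was done on 2 human hepatocellular carcinoma cell lines, Huh7, which keeps many functions of hepatocytes, and HCCLM3, which is known for a high capacity to metastasise. Both lines were given either a negative control siRNA, si-NC, or an siRNA against circASH2, a circular RNA named after the gene ASH2L, to ask how its loss affects metastasis. This gave 4 groups of 3 libraries, 12 in all: Huh7 with si-NC, Huh7 with si-circASH2, HCCLM3 with si-NC and HCCLM3 with si-circASH2. The labels name no genotype, agent or treatment beyond the line and the siRNA, and each line is a model of 1 tumour. No label tells whether the libraries of a group were grown as separate cultures, and the p-values then measure only how far these libraries spread, which can be a technical spread.

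Nuclear receptors are transcription factors that bind DNA through zinc fingers and change the activity of nearby genes when a small lipid-like ligand enters a pocket in the protein. In the hepatocyte they read the levels of bile acids, oxysterols, fatty acids and foreign chemicals, and adjust the synthesis, oxidation and export of the same molecules. Most of these receptors bind DNA together with RXR alpha, the product of RXRA. NR5A2 and ESRRA can bind as single proteins or pairs of their own, and NR0B2 has no DNA-binding domain and represses other receptors by binding to them.

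Levels are given as CPM, which are counts scaled to library size with TMM factors, with the SD of 3 libraries after ±. A change is a log2 fold change with its standard error (SE), and it passed when its Benjamini-Hochberg adjusted p in the quasi-likelihood test of edgeR, adjusted over the 16946 tested features, was under 0.05. All 10 genes passed the filter on low counts and were tested, NR1I3 through its Huh7 libraries alone. Total counts lay between 29006781 and 30858895 per library, so that 3 counts in a library were worth 0.0981 to 0.105 CPM. Counts of 1 were rarer in the table than counts of 2 (1938 against 6826 values), so the lowest counts are uncertain. The circular RNA itself has no row of its own in a gene count table, so its loss was not checked here. Of 12 hepatocyte markers, all 12 were lower in HCCLM3 than in Huh7 at baseline, where 43.6% of all tested features were. SERPINA1 and APOA1 passed the filter only through Huh7, so their direction was fixed by it and the count is given as a description. The 12 markers had a summed level of 28783 to 28851 CPM in the Huh7 si-NC libraries and 234 to 243 CPM in those of HCCLM3. ALB, which encodes albumin, stood at 9866 ± 268 CPM in Huh7 and 3.24 ± 1.06 CPM in HCCLM3, and SERPINA1, the alpha-1 antitrypsin gene, was near 0 in HCCLM3, while HNF4A was still at 94.9 ± 2.58 CPM there. The part of this lower level of hepatocyte genes in the results below was not tested, and in such libraries fewer cells with a transcript and less of it per cell cannot be told apart.

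The levels of most of these receptors differed between the 2 lines before any knockdown, as did those of most tested features. NR1I3 passed the filter only through Huh7, where it was higher, so its baseline difference is not counted. Between the si-NC groups, 8 of the other 9 receptors passed, where 85.2% of all tested features did, with 4 higher and 4 lower in HCCLM3. In the table as a whole 41.6% of features were higher and 43.6% lower. NR1H4 and NR5A2 differed most of these and, with NR0B2 and NR1H3, were lower in HCCLM3, while PPARG, NR1I2, ESRRA and RXRA were higher there. The median size of the baseline difference was 2.22 on the log2 scale for these 9 receptors and 0.96 for all tested features. For 8 of the 9 no si-NC library of a line reached into the range of the other, as for 86.5% of features, and PPARA was the exception.

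Levels of different genes were compared only per length, in the deposited FPKM (fragments scaled to gene length and library size). FPKM and CPM of a gene did not keep the same ratio in all libraries. NR1H4 in HCCLM3 with si-NC was at 1.37 FPKM and 1.98 CPM in replicate 1, but at 0.795 FPKM and 1.79 CPM in replicate 2. The order per length and the fits on FPKM below carry this variation too. In Huh7 with si-NC, NR1H4 led with 65.7 ± 2.29 FPKM, followed by RXRA with 14.3 ± 0.359 FPKM. NR1H3, NR5A2 and PPARG came next at 10.5, 9.49 and 9.22 FPKM, and neighbours among these overlapped in their libraries. ESRRA and NR0B2, at 7.02 and 5.76 FPKM, overlapped as well, PPARA stood at 2.61 FPKM, and the xenobiotic receptors NR1I3 and NR1I2 were last at 0.518 and 0.242 FPKM, also overlapping. The order in HCCLM3 was another one, with no gene of the bile acid group near the top.

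In HCCLM3 with si-NC, PPARG led with 46.3 ± 2.30 FPKM, ahead of ESRRA with 22.1 ± 1.29 FPKM and RXRA with 17.3 ± 0.561 FPKM, and no libraries of these overlapped. NR1H3 followed with 5.91 FPKM and PPARA with 2.46 FPKM. NR1I2, NR1H4, NR0B2 and NR5A2 lay between 1.15 and 0.533 FPKM, and each overlapped its neighbour. NR1I3 was last at 0.0419 FPKM. RXRA, the shared partner, was thus among the leading 3 genes in both lines, while NR1H4 moved from the first place to the seventh.

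**Figure D1:**
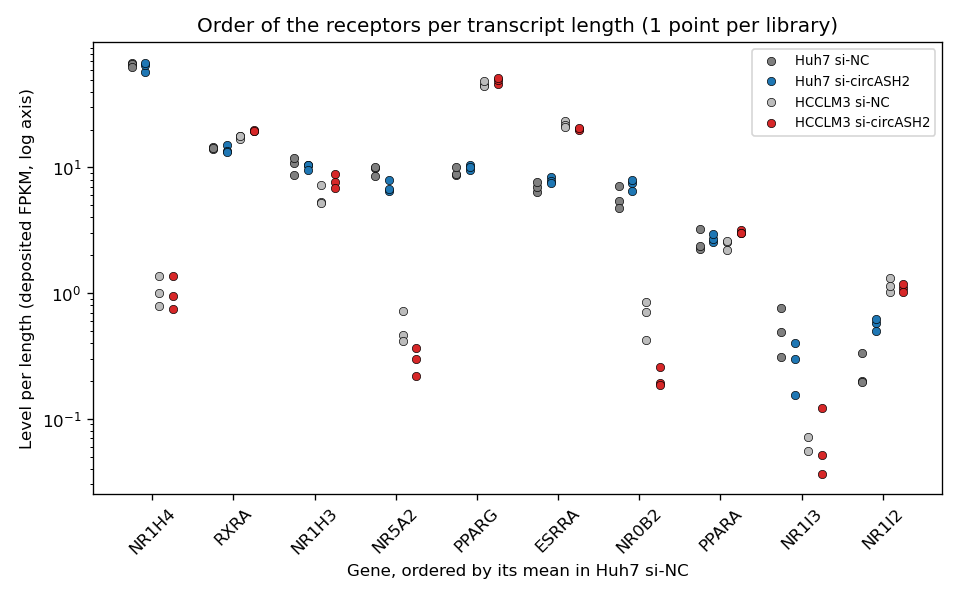
Level per transcript length (deposited FPKM, log axis) of each receptor in each of the 12 libraries, with genes ordered by their mean in Huh7 si-NC and libraries coloured by group; 1 HCCLM3 si-NC library with NR1I3 at 0 is not drawn. NR1H4 leads in Huh7 and PPARG in HCCLM3, and NR1H4, NR5A2 and NR0B2 lie far lower in HCCLM3.

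The bile acid group consists of NR1H4, which encodes the bile acid receptor FXR, its target NR0B2, which encodes the corepressor SHP, and NR5A2, which encodes LRH-1, an activator of bile acid synthesis that SHP restrains. NR1H4 lies on chromosome 12 (chr12:100473708-100564413, GRCh38, plus strand) and NR5A2 on chromosome 1 (chr1:200027602-200177424, plus strand). NR0B2 also lies on chromosome 1 (chr1:26911489-26913966, minus strand), inside the span of NUDC on the opposite strand but sharing no exon with it. The window of RXRA start 1, a gene expressed in both lines, is shown for comparison. Beside it stand the windows around the annotated starts of NR1H4 and NR5A2, the genes that differ most between the lines. Each runs from 250 bases before to 50 after a start in RefSeq (GRCh38.p14, plus strand), at chr12:100503110-100503409 for NR1H4, chr1:200027460-200027759 and chr1:200042341-200042640 for the NR5A2 starts, and chr9:134326205-134326504 for RXRA. Capitals mark the half-site AGGTCA that many nuclear receptors bind and the half-site GTTAAT of the hepatocyte factor HNF1, on either strand.
NR1H4: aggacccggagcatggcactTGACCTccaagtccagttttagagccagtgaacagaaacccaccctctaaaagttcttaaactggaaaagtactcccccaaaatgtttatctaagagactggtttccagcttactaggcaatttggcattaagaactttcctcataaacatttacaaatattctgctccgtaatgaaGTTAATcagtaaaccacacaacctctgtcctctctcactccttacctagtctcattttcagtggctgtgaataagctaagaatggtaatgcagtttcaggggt
NR5A2 start 1: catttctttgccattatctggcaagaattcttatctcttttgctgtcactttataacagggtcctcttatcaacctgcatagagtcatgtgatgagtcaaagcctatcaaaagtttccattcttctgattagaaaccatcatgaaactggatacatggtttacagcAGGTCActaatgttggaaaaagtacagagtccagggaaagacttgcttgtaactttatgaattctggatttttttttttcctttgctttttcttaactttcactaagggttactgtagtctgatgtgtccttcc
NR5A2 start 2: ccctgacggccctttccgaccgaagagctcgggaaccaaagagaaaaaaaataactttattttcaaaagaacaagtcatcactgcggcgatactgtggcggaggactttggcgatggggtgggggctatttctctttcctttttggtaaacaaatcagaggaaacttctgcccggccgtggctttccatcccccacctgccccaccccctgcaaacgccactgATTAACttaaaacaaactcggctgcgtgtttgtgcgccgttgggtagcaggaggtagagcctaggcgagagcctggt
RXRA start 1: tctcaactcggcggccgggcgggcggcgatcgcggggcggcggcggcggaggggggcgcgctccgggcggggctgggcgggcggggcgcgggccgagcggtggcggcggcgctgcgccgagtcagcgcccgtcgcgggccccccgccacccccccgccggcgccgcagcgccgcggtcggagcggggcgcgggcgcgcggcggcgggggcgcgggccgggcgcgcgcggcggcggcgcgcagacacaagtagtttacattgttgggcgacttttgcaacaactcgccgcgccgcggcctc

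The NR1H4 window held AGGTCA and GTTAAT once each, had 2 CpG and a GC content of 41.7%. At the first NR5A2 start there was 1 AGGTCA, no CpG and a GC content of 36.7%, and at the second 1 GTTAAT, 16 CpG and 52.7% GC. The RXRA window shown held neither motif and had 65 CpG and 84.0% GC. A further RXRA window, not shown, held neither motif and had 8 CpG and 64.7% GC. Among all 35116 windows of this length the median was 14 CpG and 58.7% GC, 13.8% held AGGTCA and 6.88% held GTTAAT. The longer element CAAGGTCA, which contains AGGTCA and is the form that LRH-1 and ERR alpha favour, was in 1.28% of windows and in none of the 21 windows of the 9 receptors that had one. Of the other receptors' windows, those above the median in CpG were both of PPARA, which overlap and hold 52 CpG each, that of ESRRA with 39 and 1 of the 4 of NR1H3 with 26, and NR1I3 and both NR1I2 windows had between 0 and 5. The remaining NR1H3 windows had between 2 and 7 CpG, and the first of them held 1 AGGTCA. All PPARG windows had between 1 and 10 CpG, and the first held 2 AGGTCA and 1 GTTAAT. A match of letters describes the window and shows no binding.

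NR1H4 was at 169, 165 and 159 CPM in the Huh7 si-NC libraries and at 151, 158 and 156 CPM with si-circASH2. In HCCLM3 it was at 1.98, 1.79 and 2.13 CPM with si-NC and at 2.10, 1.73 and 2.75 CPM with si-circASH2. All Huh7 libraries were far above all HCCLM3 libraries, and within Huh7 the knockdown libraries were all a little below the controls. At baseline NR1H4 was 83.5-fold lower in HCCLM3 (log2 −6.38 ± 0.08, adjusted p = 3.18e-27). With si-circASH2 its log2 difference was −0.09 ± 0.05 in Huh7 (adjusted p = 0.159) and 0.15 ± 0.14 in HCCLM3 (adjusted p = 0.479), and neither passed. The Huh7 difference passed when each line was fitted alone, with an adjusted p of 0.0456.

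NR0B2 was at 6.99, 6.31 and 9.28 CPM in Huh7 with si-NC and at 10.2, 8.45 and 10.4 CPM with si-circASH2. In HCCLM3 it stood at 0.942, 0.595 and 1.11 CPM with si-NC and at 0.271, 0.365 and 0.269 CPM with si-circASH2. The Huh7 groups overlapped through si-NC replicate 3, whereas every HCCLM3 knockdown library was below every control, on counts of 8, 11 and 8 against 28, 17 and 34. In HCCLM3 NR0B2 fell by 1.54 on the log2 scale (SE 0.32, adjusted p = 0.000607), which is 2.91-fold lower. In Huh7 the log2 difference was 0.36 ± 0.16 (adjusted p = 0.0887), and it passed without si-NC replicate 3 (0.54 ± 0.17, adjusted p = 0.0195) and with each line fitted alone (adjusted p = 0.0479). The effect in HCCLM3 minus that in Huh7 was −1.90 ± 0.36 (adjusted p = 0.000366), the largest difference between the lines among the receptors that passed. With limma on log2(FPKM + 1), a scale that understates the change of low genes, the fall in HCCLM3 was −0.45 and the difference between the lines −0.76, and both still passed. At baseline NR0B2 was 8.45-fold lower in HCCLM3 (log2 −3.08 ± 0.20, adjusted p = 9.13e-13, or −2.02 by limma). NUDC, whose span holds NR0B2, rose in both lines, by 0.24 ± 0.05 in Huh7 and 0.41 ± 0.05 in HCCLM3 on the log2 scale (adjusted p = 0.000842 and 3.18e-06), and since the strand of the libraries is not given in the sources used here, reads of NUDC within NR0B2 cannot be told apart from its own.

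NR5A2 was the receptor that fell in both lines. In Huh7 it went from 49.9, 46.9 and 47.0 CPM with si-NC to 38.4, 36.3 and 37.3 CPM with si-circASH2. In HCCLM3 the values were 2.66, 2.45 and 3.40 CPM with si-NC and 1.73, 2.12 and 1.24 CPM with si-circASH2. In both lines every knockdown library was below every control. The fall was 0.36 on the log2 scale in Huh7 (SE 0.08, adjusted p = 0.000627), 1.28-fold, and 0.74 in HCCLM3 (SE 0.16, adjusted p = 0.000946), 1.67-fold. The difference between the lines was −0.38 ± 0.18 (adjusted p = 0.140) and passed without HCCLM3 si-circASH2 replicate 2 (−0.56 ± 0.19, adjusted p = 0.0439), but limma on log2(FPKM + 1) turned its sign (0.15, adjusted p = 0.471). With limma the call was lost in Huh7 with a pseudocount of 0.1 (adjusted p = 0.0961) and in HCCLM3 with a pseudocount of 1 (log2 −0.24, adjusted p = 0.0691). NR5A2 was 16.8-fold lower in HCCLM3 at baseline (log2 −4.07 ± 0.10, adjusted p = 3.59e-21).

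NR1H3 encodes LXR alpha, the oxysterol receptor that turns on cholesterol efflux and fatty acid synthesis, and lies at chr11:47248300-47269032 (plus strand). Its Huh7 libraries were at 19.7, 21.8 and 22.2 CPM with si-NC and at 21.6, 20.9 and 21.1 CPM with si-circASH2. Its HCCLM3 libraries stood at 11.1, 10.8 and 14.4 CPM with si-NC and at 16.3, 17.2 and 17.5 CPM with si-circASH2. The Huh7 groups overlapped entirely, and in HCCLM3 all knockdown libraries were above all controls yet below every Huh7 library. NR1H3 rose 1.40-fold in HCCLM3 (log2 0.49 ± 0.09, adjusted p = 0.000172), while the log2 difference in Huh7 was −0.003 ± 0.084. The rise was lost with limma on log2(FPKM + 0.1) (adjusted p = 0.0523) and on log2(FPKM + 1) over all features above 0 (0.0808), and passed at 0.0485 with the filter. The effects differed between the lines by 0.49 ± 0.12 (adjusted p = 0.00527), a call lost with limma on FPKM (adjusted p = 0.133 with a pseudocount of 1). At baseline it was 1.75-fold lower in HCCLM3 (log2 −0.81 ± 0.09, adjusted p = 9.25e-09). NR1H3 shares exonic sequence with ACP2 on the opposite strand, so reads within the shared stretch cannot be told apart either. ACP2, a lysosomal phosphatase gene, was at 20.3 CPM in HCCLM3 with si-NC and 18.6 CPM with si-circASH2 (log2 −0.12 ± 0.07, adjusted p = 0.170). In Huh7 it was at 47.6 CPM with si-NC and 42.5 CPM with si-circASH2, a fall that passed (log2 −0.17 ± 0.06, adjusted p = 0.0322). Like NR1H3, ACP2 was lower in HCCLM3 at baseline (log2 −1.23 ± 0.06, adjusted p = 3.29e-15).

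The xenobiotic receptors PXR and CAR, encoded by NR1I2 (chr3:119780484-119818485, plus strand) and NR1I3 (chr1:161229666-161238302, minus strand), induce the enzymes and pumps that clear drugs and bilirubin. NR1I2 was at 1.02, 1.0 and 1.67 CPM in Huh7 with si-NC and at 2.57, 2.88 and 3.10 CPM with si-circASH2. In HCCLM3 it was at 4.98, 5.74 and 6.51 CPM with si-NC and at 5.32, 6.0 and 5.04 CPM with si-circASH2. The Huh7 knockdown libraries were thus all above their controls and below every HCCLM3 library, and the HCCLM3 groups overlapped. NR1I2 rose 2.31-fold in Huh7 (log2 1.21 ± 0.20, adjusted p = 6.35e-05), the largest rise of a receptor that passed, and its log2 difference in HCCLM3 was −0.07 ± 0.17 (adjusted p = 0.812). The effect in HCCLM3 minus that in Huh7 was −1.28 ± 0.26 (adjusted p = 0.00100). With limma on log2(FPKM + 1) the rise in Huh7 was 0.33, the difference between the lines −0.37 and the baseline difference 0.79, and all 3 passed. NR1I2 shares exonic sequence with AC069444.2, annotated on the same strand and not analysed here, so how reads were split between them is uncertain. Baseline NR1I2 was 4.65-fold higher in HCCLM3 (log2 2.22 ± 0.20, adjusted p = 1.95e-10), 1 of the 4 receptors that were higher there while the hepatocyte markers were lower.

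NR1I3 was barely detected. It had 25, 17 and 35 counts in the Huh7 si-NC libraries and 20, 17 and 9 with si-circASH2, or 0.845 ± 0.291 and 0.514 ± 0.193 CPM. The HCCLM3 libraries held 0, 3 and 3 counts with si-NC and 6, 5 and 3 with si-circASH2, all within a few counts of the floor. Both knockdown comparisons overlapped, with log2 differences of −0.72 ± 0.43 in Huh7 (adjusted p = 0.229) and 1.16 ± 0.79 in HCCLM3 (adjusted p = 0.294), so that a difference was not detectable at this depth. Every Huh7 si-NC library was above every HCCLM3 si-NC library, which is given as a description since the gene was kept for its Huh7 counts. TOMM40L, which shares exonic sequence with NR1I3 on the opposite strand, was at 26.1 and 13.4 CPM in the si-NC groups of Huh7 and HCCLM3. Without strand, reads within the stretch that the overlapping genes share cannot be told apart.

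The fatty acid receptors are PPAR alpha, which drives fatty acid oxidation in the fasted liver and is encoded by PPARA (chr22:46150521-46243756, plus strand), and PPAR gamma, the regulator of fat storage, encoded by PPARG (chr3:12287368-12434356, plus strand). PPARA was at 25.2, 26.2 and 29.3 CPM in Huh7 with si-NC and at 29.3, 29.1 and 32.0 CPM with si-circASH2. In HCCLM3 it was at 26.3, 23.6 and 27.1 CPM with si-NC and at 31.3, 32.4 and 31.3 CPM with si-circASH2. The control levels of the lines overlapped, and the knockdown libraries stood clear of the controls only in HCCLM3. PPARA rose 1.23-fold in HCCLM3 (log2 0.30 ± 0.07, adjusted p = 0.00141). In Huh7 the log2 difference was 0.16 ± 0.07 (adjusted p = 0.0704), passing without si-NC replicate 3 (0.23 ± 0.07, adjusted p = 0.0191), and the difference between the lines was 0.14 ± 0.10 (adjusted p = 0.354). The HCCLM3 call was lost with limma on FPKM, with adjusted p = 0.0742 at a pseudocount of 1. PPARA was the receptor that did not pass at baseline (log2 −0.07 ± 0.07, adjusted p = 0.362).

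PPARG was at 17.6, 18.0 and 19.5 CPM in Huh7 with si-NC and at 19.5, 20.5 and 20.4 CPM with si-circASH2. The HCCLM3 libraries stood at 89.0, 91.2 and 94.3 CPM with si-NC and at 91.0, 100.1 and 102.9 CPM with si-circASH2. All HCCLM3 libraries were above all Huh7 libraries, and the siRNA groups overlapped within each line. PPARG was 4.97-fold higher in HCCLM3 at baseline (log2 2.31 ± 0.06, adjusted p = 1.38e-21). Its log2 differences with si-circASH2 were 0.13 ± 0.06 in Huh7 (adjusted p = 0.113) and 0.10 ± 0.05 in HCCLM3 (adjusted p = 0.134), and the latter passed without si-circASH2 replicate 1 (0.15 ± 0.05, adjusted p = 0.0360). PPARG is best known from fat cells, and of the adipocyte markers ADIPOQ and LEP were at 0 in both si-NC groups and all 5 together summed to at most 1.05 CPM in any library.

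RXRA (chr9:134317098-134440585, plus strand) was at 28.9, 30.9 and 29.6 CPM in Huh7 with si-NC and at 32.5, 28.3 and 27.6 CPM with si-circASH2. In HCCLM3 it was at 36.2, 35.4 and 36.7 CPM with si-NC and at 39.9, 41.7 and 40.7 CPM with si-circASH2. The Huh7 groups overlapped, and the HCCLM3 knockdown libraries were all above their controls. The rise in HCCLM3 was 1.13-fold (log2 0.18 ± 0.06, adjusted p = 0.0262) and depended on single libraries: the adjusted p was 0.0690 without si-NC replicate 1, 0.0832 without si-NC replicate 2, 0.0849 without si-circASH2 replicate 2 and 0.0588 without si-circASH2 replicate 3. In Huh7 the log2 difference was −0.01 ± 0.06 (adjusted p = 0.911), and the difference between the lines, 0.19 ± 0.09 (adjusted p = 0.122), passed without Huh7 si-circASH2 replicate 1 (0.27 ± 0.08, adjusted p = 0.0187) and with limma on log2(FPKM + 1) (adjusted p = 0.0488). RXRA was 1.21-fold higher in HCCLM3 at baseline (log2 0.28 ± 0.06, adjusted p = 0.000197), the smallest baseline difference that passed.

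ESRRA (chr11:64305572-64316743, plus strand) encodes ERR alpha, an orphan receptor that works with PGC-1 coactivators on genes of mitochondrial energy production. It was at 15.6, 16.9 and 17.9 CPM in Huh7 with si-NC and at 21.2, 19.0 and 18.3 CPM with si-circASH2. Those of HCCLM3 were at 57.0, 54.3 and 51.9 CPM with si-NC and at 48.6, 49.5 and 50.6 CPM with si-circASH2. The groups did not overlap in either line, with the knockdown libraries above the controls in Huh7 and below them in HCCLM3. ESRRA rose 1.16-fold in Huh7 (log2 0.21 ± 0.07, adjusted p = 0.0207), and this was lost without si-NC replicate 1 (adjusted p = 0.118), without si-circASH2 replicate 1 (0.132), with each line fitted alone (0.0596) and with limma on FPKM (0.0865 at a pseudocount of 1). The log2 difference in HCCLM3 was −0.13 ± 0.06 (adjusted p = 0.0913, or 0.0276 with each line fitted alone). The effect in HCCLM3 minus that in Huh7 was −0.35 ± 0.09 (adjusted p = 0.00751), a call lost with limma on log2(FPKM + 1) over all features above 0 (adjusted p = 0.0562). At baseline ESRRA was 3.24-fold higher in HCCLM3 (log2 1.69 ± 0.06, adjusted p = 1.39e-17). TRMT112, which shares exonic sequence with it on the opposite strand, was at 108 and 102 CPM in the Huh7 groups and at 129.5 and 125 CPM in those of HCCLM3, and ESRRA is uncertain in the same way.

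**Figure D2:**
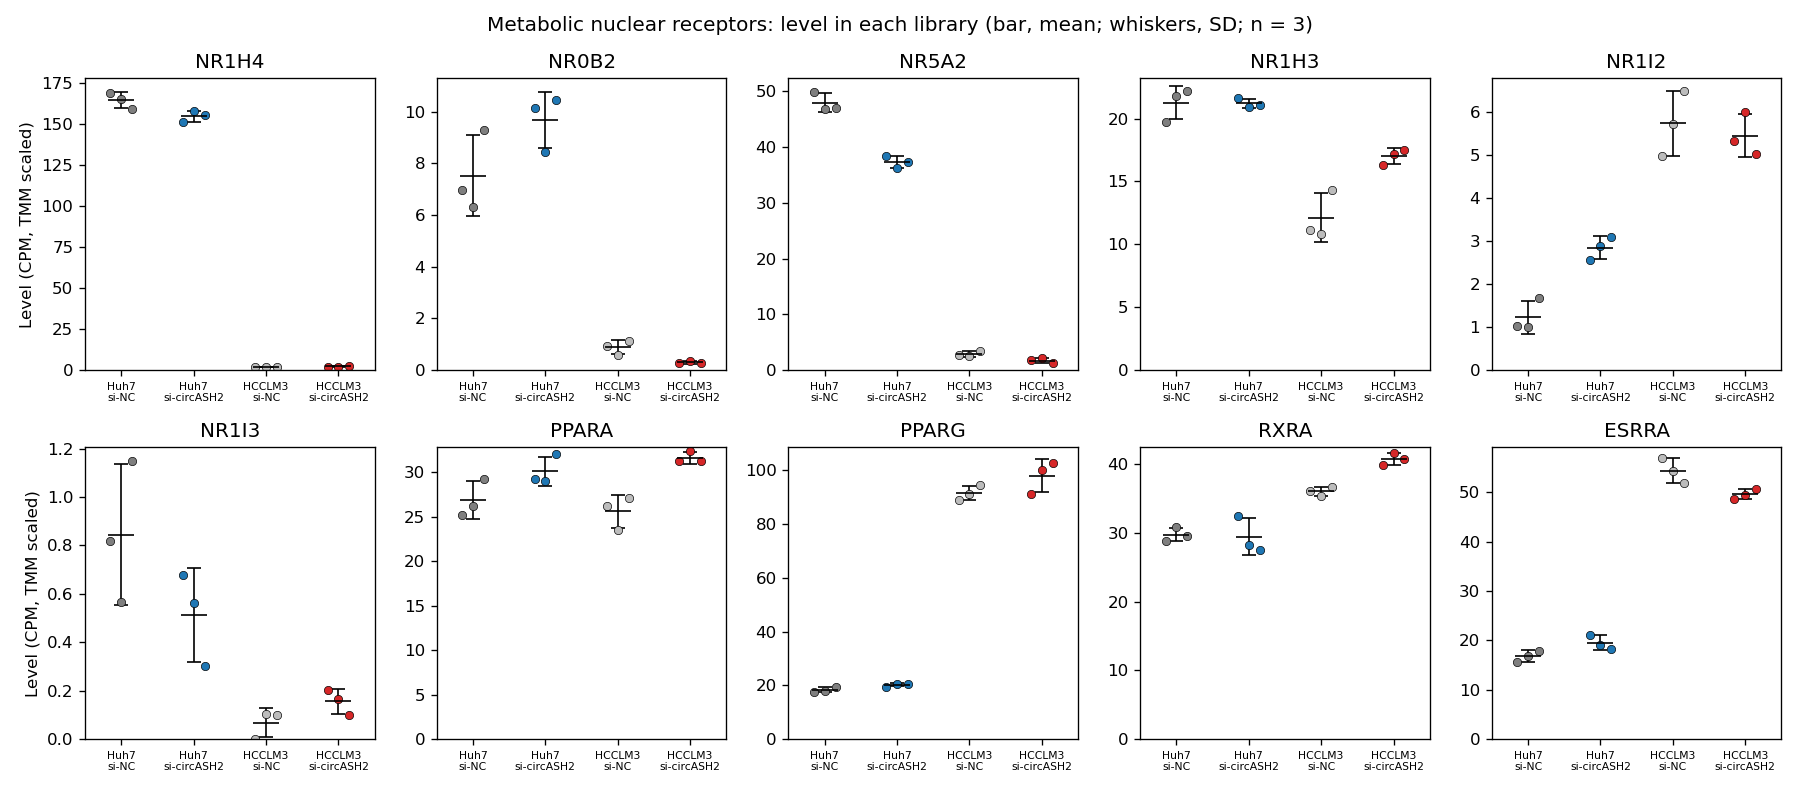
Level of each receptor in each library (CPM, TMM scaled, axes from 0) in the 4 groups of 3 libraries, with the mean as a bar and the SD as whiskers. NR5A2 is lower with si-circASH2 in both lines, NR0B2 is lower in HCCLM3, NR1H3 and PPARA are higher in HCCLM3, and NR1I2 is higher in Huh7.

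Counted over the 10 receptors, the knockdown in Huh7 gave 2 that rose (NR1I2 and ESRRA) and 1 that fell (NR5A2), or 3 of 10, where 31.4% of all tested features passed (16.3% higher and 15.1% lower). In HCCLM3 3 rose (NR1H3, PPARA and RXRA) and 2 fell (NR0B2 and NR5A2), or 5 of 10, where 30.6% of features passed (15.1% higher and 15.5% lower). The Huh7 count stood near the background, and without Huh7 si-NC replicate 3 it was 5. Libraries did not overlap for 4 receptors in Huh7 and 6 in HCCLM3, against 42.7% and 43.7% of all features. The median change of the receptors was 0.06 in Huh7 and 0.13 in HCCLM3 on the log2 scale, and that of all features 0.01 and 0.00. The median size was 0.19 and 0.24 for the receptors and 0.18 and 0.17 for all features.

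NR5A2 alone passed in both lines, 7 receptors passed in at least 1, and NR1H4, NR1I3 and PPARG passed in neither. The test of the difference between the lines passed for 4 of 10 (NR0B2, NR1I2, NR1H3 and ESRRA), where 20.9% of features did. It was higher in HCCLM3 for NR1H3 (9.60% of features were so) and lower for the other 3 (11.3%). With si-circASH2 the order per length kept NR1H4 first in Huh7 and PPARG first in HCCLM3. NR5A2 in Huh7 was seventh at 7.03 FPKM where it had stood just below NR1H3 with si-NC, its libraries overlapping those of NR0B2 above it, and NR1I2 at 0.563 FPKM stood above NR1I3 at 0.283 FPKM.

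**Figure D3:**
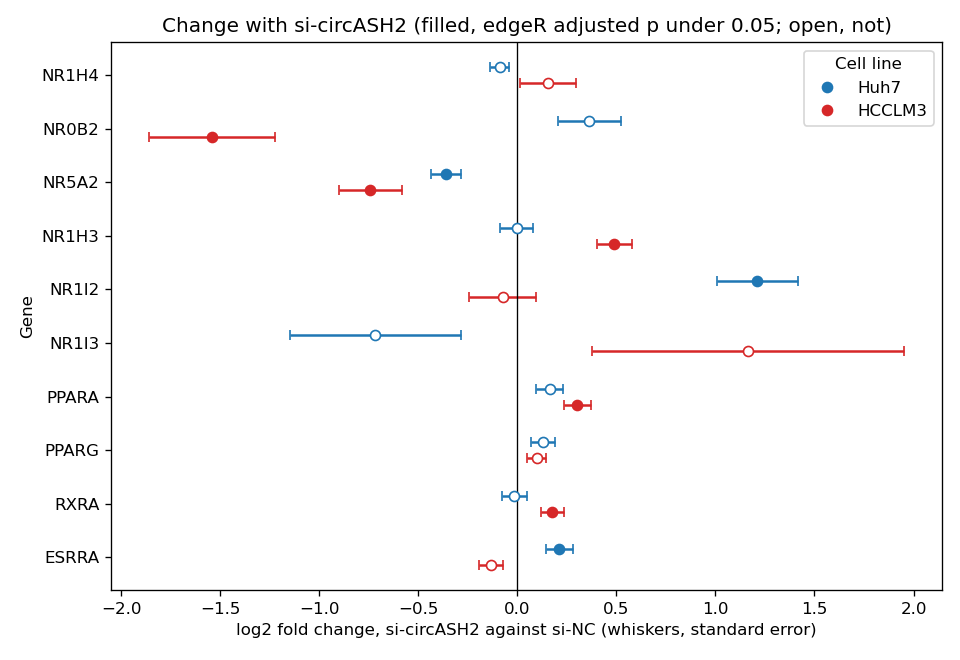
Log2 fold change of each receptor with si-circASH2 against si-NC in Huh7 (blue) and HCCLM3 (red), with whiskers of 1 standard error and filled points for an edgeR adjusted p under 0.05. NR5A2 is filled below 0 in both lines, and NR1I2 and NR0B2 show the largest filled changes, 1.21 in Huh7 and −1.54 in HCCLM3.

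Lists of genes on which each receptor is known to act, that of FXR with further genes of bile acid handling, were read from the same fit. The lists do not separate genes that a receptor induces from genes that it represses, so the counts and medians do not measure its activity. Their knockdown counts stand beside the shares of all tested features, 16.3% higher and 15.1% lower in Huh7. In HCCLM3 these shares were 15.1% and 15.5%. The lists share some genes: CYP7A1, CYP8B1, ABCG5, ABCG8 and APOA1 each stand in more than 1 list of targets or markers, and HNF4A is both a nuclear receptor and a hepatocyte marker. The bile acid list held 16 genes, of which 15 were tested. In Huh7 1 rose, 3 fell and 11 did not pass (median log2 −0.03), and in HCCLM3 3 rose, 2 fell and 10 did not pass (median 0.09, or 0.15 without 3 genes at or under the floor). SLC51B, which encodes a subunit of the transporter that carries bile acids out of the cell, fell from 67.8 ± 4.0 to 54.6 ± 2.70 CPM in Huh7 (log2 −0.31 ± 0.06, adjusted p = 0.000107) and rose from 10.4 to 12.1 CPM in HCCLM3 (0.23 ± 0.07, adjusted p = 0.0230), and the effects differed (0.54 ± 0.09, adjusted p = 0.000145). The HCCLM3 rise was lost without si-NC replicate 2 (adjusted p = 0.0866) or 3 (0.0689) and without si-circASH2 replicate 1 (0.0826) or 3 (0.0730). Its partner SLC51A and the canalicular bile salt pump gene ABCB11 did not pass in either knockdown, with 41.1 and 6.02 CPM in Huh7 si-NC and 0.537 and 3.04 CPM in HCCLM3 si-NC. FGF19, the hormone that signals bile acid excess, was at 109 CPM in Huh7 si-NC and 118 CPM with si-circASH2, which did not pass, and at 0 in all HCCLM3 libraries, at least 3235-fold higher in Huh7 at baseline with a floor of 3 counts over the group. At baseline 12 of the 15 were lower and 3 higher in HCCLM3, where 43.6% and 41.6% of all features were. Of the lower genes, FGF19, CYP7B1, CYP8B1, SLC10A1 and FETUB passed the filter only through Huh7. Their direction was thus fixed by the filter, and the count is given as a description. The last 4 of these were named after their values were seen.

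The 11 genes known as targets of LRH-1 had 8 tested members. In Huh7 none rose, 3 fell and 5 did not pass (median −0.18), and in HCCLM3 2 rose, 1 fell and 5 did not pass (median 0.22, or 0.27 without 1 gene at or under the floor). All but SCARB1 and PROX1 had HCCLM3 group means of at most 0.637 CPM, so that median rests mostly on low counts. ABCG8, 1 of the 2 that rose there, was at 0 with si-NC and 0.0666 CPM with si-circASH2. PROX1 and ABCG8 were named here after their values were seen. SCARB1, the receptor that takes up cholesterol from HDL, fell with NR5A2 in both lines, from 318 to 286 CPM in Huh7 (log2 −0.15 ± 0.03, adjusted p = 0.000938) and in HCCLM3 from 513 to 434 CPM (−0.24 ± 0.03, adjusted p = 3.14e-06). APOA1, the main protein of HDL, fell from 552 ± 18.9 to 416 ± 11.1 CPM in Huh7 (−0.41 ± 0.04, adjusted p = 1.53e-08) and was at 0.246 CPM in HCCLM3 si-NC. The fall of APOA1 was lost with limma on log2(FPKM + 0.1) (adjusted p = 0.0591). CEL and APOM did not pass in either knockdown, with 1.14 and 41.9 CPM in Huh7 si-NC.

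Of 14 targets of LXR, 13 were tested. In Huh7 3 rose, 3 fell and 7 did not pass (median −0.02), and in HCCLM3, where NR1H3 rose, 4 rose, 5 fell and 4 did not pass (median −0.06). ABCA1, the pump that loads cholesterol onto HDL, fell from 182 ± 4.10 to 133.5 ± 3.94 CPM in Huh7 (log2 −0.45 ± 0.04, adjusted p = 1.46e-08) and rose from 48.8 to 53.9 CPM in HCCLM3 (0.14 ± 0.05, adjusted p = 0.0184), and these effects differed (0.59 ± 0.06, adjusted p = 2.23e-07). The related pump gene ABCG1 fell in HCCLM3, from 2.61 to 1.04 CPM (−1.32 ± 0.28, adjusted p = 0.000640), as did MYLIP, which marks the LDL receptor for degradation (−0.36 ± 0.10, adjusted p = 0.0102). The HCCLM3 rise of ABCA1 was lost without si-NC replicate 1 (adjusted p = 0.0593) or 3 (0.0886), without si-circASH2 replicate 2 (0.111) and by limma (0.0751 to 0.0924). That of MYLIP was lost without si-NC replicate 2 (adjusted p = 0.0608), without si-circASH2 replicate 3 (0.0722) and by limma on log2(FPKM + 0.1) (0.0513) or over all features (0.0687), and the fall of ABCG1 was −0.46 with limma on log2(FPKM + 1). SREBF1, which drives fatty acid synthesis, did not pass in either line, with 146 and 144 CPM in Huh7 and 119 and 110.1 CPM in HCCLM3. Of the 4 that rose in HCCLM3, ABCG8, chosen here after its values were seen, was at 0 in all si-NC libraries and at 0.0666 CPM with si-circASH2.

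The list for PXR and CAR held 16 genes of drug clearance, 14 of them tested. In Huh7, where NR1I2 rose, 2 rose, none fell and 12 did not pass (median −0.04), and in HCCLM3 4 rose, 4 fell and 6 did not pass (median −0.10). CYP3A5 rose from 11.1 to 14.3 CPM in Huh7 (log2 0.37 ± 0.07, adjusted p = 0.000416) and fell from 42.1 to 34.1 CPM in HCCLM3 (−0.30 ± 0.06, adjusted p = 0.000563), and the effects differed (−0.67 ± 0.10, adjusted p = 1.66e-05). CYP2B6, the classical target of CAR, fell in HCCLM3 from 15.8 ± 1.01 to 8.72 ± 0.433 CPM (−0.86 ± 0.11, adjusted p = 3.01e-06) and was at 0.781 and 0.748 CPM in the Huh7 groups, which did not pass. CYP3A7 and CYP2C8 did not pass in either knockdown and lay at or below 1.90 CPM in all group means. SULT2A1, among the 4 that rose in HCCLM3 and likewise chosen after its values were seen, was at 0 in all si-NC libraries of that line. CYP3A4 and CYP2A6 were under the filter.

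The PPAR list of 26 genes had 23 tested. In Huh7 4 rose, 4 fell and 15 did not pass (median 0.04), and in HCCLM3 6 rose, 6 fell and 11 did not pass (median 0.00, or −0.02 without 1 gene at 0). PDK4, which spares glucose when fat is burned, rose in HCCLM3 from 1.09 to 2.23 CPM (log2 1.03 ± 0.25, adjusted p = 0.00329), and ANGPTL4, an inhibitor of lipoprotein lipase, fell there from 4.93 ± 2.62 to 1.92 ± 0.300 CPM (−1.36 ± 0.32, adjusted p = 0.00447). The rise of PDK4 was 0.29 with limma on log2(FPKM + 1), and the fall of ANGPTL4 was −0.75 on that scale, −0.83 without si-NC replicate 3 and lost with each line fitted alone (adjusted p = 0.0725). PLIN2, which coats lipid droplets, fell by 0.10 in Huh7 and rose by 0.12 in HCCLM3 on the log2 scale (SE 0.04 each, adjusted p = 0.0439 and 0.0143), and the effects differed (0.22 ± 0.05, adjusted p = 0.00343). The Huh7 call of PLIN2 was lost in 9 of 20 alternatives, 7 of which left out a library (adjusted p from 0.0590 to 0.190), and the HCCLM3 call without si-NC replicate 1 (0.0662) or 2 (0.0544). CPT1A, the gate of mitochondrial fatty acid oxidation, did not pass in either knockdown and was at 10.1 CPM in Huh7 si-NC and 143 CPM in HCCLM3 si-NC.

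For ESRRA, 18 of 19 listed names were found and tested, the remaining name being an alias of ATP5B. In Huh7 3 rose, 2 fell and 13 did not pass (median 0.01), and in HCCLM3 4 rose, 4 fell and 10 did not pass (median 0.05). CYCS, which encodes cytochrome c, rose in Huh7 (0.20 ± 0.05, adjusted p = 0.00151). Its log2 change was 0.13 without si-circASH2 replicate 2, and the call was lost with limma over all features above 0 (adjusted p = 0.0637). IDH3A and CS, both of the citric acid cycle, did not pass in either knockdown. At baseline 12 of the 18 were higher and 6 lower in HCCLM3, where 41.6% and 43.6% of all features were. Among the higher genes PERM1, named after its values were seen, passed the filter only through HCCLM3.

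The 19 coregulators were all tested. In Huh7 1 rose, 7 fell and 11 did not pass (median −0.07), and in HCCLM3 4 rose, 3 fell and 12 did not pass (median 0.05). PPARGC1A, which encodes the coactivator PGC-1 alpha, was at 1.73 CPM in Huh7 si-NC and at 0 in all HCCLM3 libraries, at least 51.2-fold higher in Huh7. Its relative PPARGC1B rose in HCCLM3 from 12.4 to 14.9 CPM (log2 0.27 ± 0.09, adjusted p = 0.0230), and PPRC1 fell in Huh7 from 103 to 94.9 CPM (−0.12 ± 0.04, adjusted p = 0.0289). The call of PPARGC1B was lost without HCCLM3 si-NC replicate 3 (adjusted p = 0.125), without si-circASH2 replicate 1 (0.0859) or 3 (0.0574) and by limma on log2(FPKM + 0.1) (0.0564). That of PPRC1 was lost without Huh7 si-NC replicate 1 (adjusted p = 0.0930) or 2 (0.0848), without si-circASH2 replicate 3 (0.148) and under upper quartile factors (0.0576). NCOA1 did not pass in either knockdown, at 29.2 and 21.2 CPM in the si-NC groups.

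Of the 38 other nuclear receptors, 29 were tested. In Huh7 6 rose, 5 fell and 18 did not pass (median 0.07, or 0.10 without 2 genes at 0), and in HCCLM3 10 rose, 2 fell and 17 did not pass (median 0.14). NR1H2, which encodes LXR beta, rose in both lines, by 0.26 ± 0.06 in Huh7 and 0.16 ± 0.05 in HCCLM3 (adjusted p = 0.00107 and 0.0241). RXRB and PPARD, relatives of RXRA and of the PPAR genes, rose in HCCLM3 by 0.22 ± 0.08 and 0.33 ± 0.08 on the log2 scale (adjusted p = 0.0346 and 0.00366). In HCCLM3 the call of NR1H2 was lost without si-NC replicate 2 (adjusted p = 0.126) or 3 (0.0545), without si-circASH2 replicate 2 (0.0841) or 3 (0.138) and by limma (0.0627 to 0.0849). The call of RXRB was lost there without si-NC replicate 1 (adjusted p = 0.0929) or 2 (0.128), without si-circASH2 replicate 1 (0.0930) or 3 (0.191) and by limma (0.0546 to 0.0718). HNF4A, a master regulator of hepatocyte genes, fell from 242 ± 5.12 to 192 ± 6.98 CPM in Huh7 (−0.33 ± 0.04, adjusted p = 2.77e-07) and was at 94.9 and 91.4 CPM in HCCLM3, which did not pass, and the effects differed (0.28 ± 0.05, adjusted p = 0.000594), a call lost with limma (adjusted p from 0.0944 to 0.144). Beside these changes, the 12 hepatocyte markers summed to 26790 to 27087 CPM in Huh7 with si-circASH2, below its controls, and to 272 to 274 CPM in HCCLM3 with si-circASH2, above its controls. The fibroblast markers summed to 34.3 to 40.3 CPM in Huh7 with si-NC and 56.7 to 57.7 CPM with si-circASH2, and to 35.7 to 38.1 and 49.0 to 53.6 CPM in HCCLM3, with THY1 and POSTN at or near 0 throughout. Of the 6 tested, 4 rose in Huh7 and 1 in HCCLM3, and none fell. COL1A2 went from 24.4 to 38.9 CPM in Huh7, and LUM from 34.3 to 48.4 CPM in HCCLM3. COL1A1 was at 4.21 CPM with si-NC and 3.95 CPM with si-circASH2 in Huh7, and at 0.218 and 0.124 CPM in HCCLM3. The endothelial list summed to 24.8 to 28.1 CPM in Huh7 with si-NC and 24.3 to 25.0 CPM with si-circASH2, which overlapped, and in HCCLM3 to 29.7 to 31.4 CPM with si-NC and, without overlap, 22.4 to 25.4 CPM with si-circASH2. The leukocyte list summed to 383 to 419 CPM in Huh7 with si-NC and, lower, 337 to 365 CPM with si-circASH2, and in HCCLM3 to 149 to 170 CPM with si-NC and, higher, 182 to 218 CPM with si-circASH2. Of its genes CD68 rose in both lines, in Huh7 from 20.7 to 38.6 CPM and in HCCLM3 from 154 to 187 CPM, and LYZ fell from 375 to 312 CPM in Huh7. CD163 went from 4.63 to 10.6 CPM in HCCLM3 and was at 0 in Huh7. PTPRC was at or below 0.849 CPM in all group means, and CD3E and MS4A1 were at 0. The part of these marker levels in the results was not tested.

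**Figure D4:**
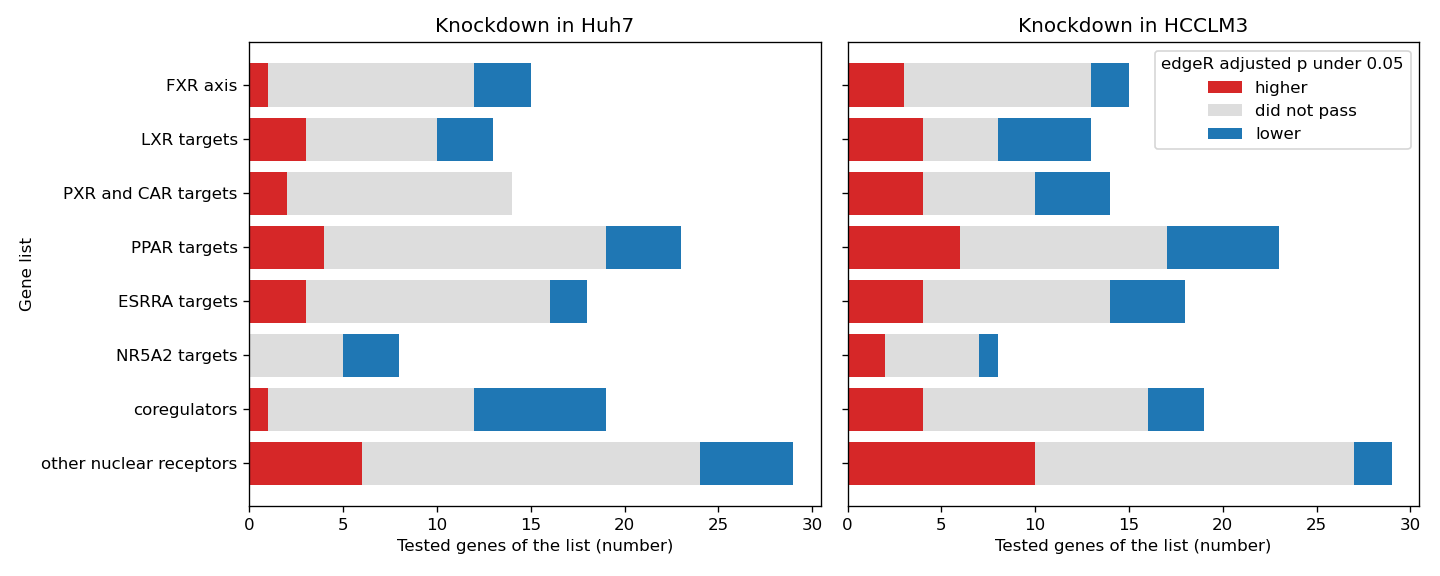
Number of tested genes of each list that were higher (red), lower (blue) or did not pass (grey) with si-circASH2 in Huh7 (left) and HCCLM3 (right), by edgeR adjusted p. No LRH-1 target rose in Huh7, where 3 of 8 fell, and 10 of 29 other nuclear receptors rose in HCCLM3. Of all tested features 16.3% rose and 15.1% fell in Huh7, and 15.1% rose and 15.5% fell in HCCLM3.

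For the 7 receptors that passed in at least 1 knockdown, the features with the most similar pattern were found by the Euclidean distance over 3 log2 differences (both knockdowns and the baseline) among 13373 features, each difference resting on 3 libraries a group. Nearest to NR5A2 were PAX9 (distance 0.165) and NAALAD2 (0.166), and nearest to NR0B2 were SLC6A13 (0.159) and PTGES3L-AARSD1 (0.310). NR1I2 lay closest to ITGAM (0.202) and CCDC88B (0.263), and NR1H3 to CNTRL (0.0420) and another nuclear receptor gene, THRA (0.0719). Those closest to PPARA were EXOC2 (0.0405) and SERF1B (0.0653), to RXRA HEATR1 (0.0121) and SMG1 (0.0308), and to ESRRA STK39 (0.0685) and NEK10 (0.0714). SERF1B has a near-identical copy and PTGES3L-AARSD1 is a read-through of neighbouring genes, so their counts are uncertain. THRA, the thyroid hormone receptor alpha gene, changed by 0.02, 0.55 and −0.78 on the log2 scale in these comparisons.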

How the data were processed

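RNA sequencing gave 12 libraries, 4 groups of 3 by their labels. The deposited counts are whole numbers per gene and library, and the deposited FPKM of the same genes were scaled by the authors for length and depth, per the file headers. The builds named in the submitters' processing notes are hg38, mm10 and GRCm38, without roles. The aligner, counter, annotation and library strand count as not given in the sources used here. All columns were used.

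The count model was fitted in edgeR 4.0.16 (R 4.3.3), with filterByExpr with a minimum count of 10 (16946 of 23583 features), TMM factors, 1 coefficient per group over all 12 libraries, the robust quasi-likelihood test with 8 residual degrees of freedom, and Benjamini-Hochberg adjustment with a threshold of 0.05. The comparisons were si-circASH2 against si-NC in each line, the difference of these effects (the interaction) and the si-NC groups of HCCLM3 against Huh7. The SE of a log2 fold change is its size over the root of F. Floors cover counting error only. The scripts were tested on simulated data. Alternatives were DESeq2 1.42.0, upper quartile factors, no filter, each line alone, limma 3.58.1 on log2(FPKM + 1) and log2(FPKM + 0.1), a replicate block, and leaving out each library. Gene positions are from GENCODE (GRCh38), and promoter windows from RefSeq (GRCh38.p14), where NR0B2 had none.

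The receptors and gene lists were chosen with earlier results of these data known. All 10 receptors were named, the first 4 tested genes of each list in written order (1 of these is not reported here), and the 2 nearest features of each receptor that passed in a knockdown (at least 1 CPM in a group, with a symbol, not Y-linked). Genes named outside this rule are said to be so, except marker genes and genes that overlap a receptor.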

Additional observations from a re-analysis of the deposited data

Results flagged for a closer look

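The knockdown effect differed between the lines by the interaction test for 4 receptors. The effect in HCCLM3 minus that in Huh7 was −1.90 on the log2 scale for NR0B2, −1.28 for NR1I2, −0.35 for ESRRA and 0.49 for NR1H3. All 3 HCCLM3 knockdown libraries of NR0B2 were below their controls, all 3 Huh7 knockdown libraries of NR1I2 were above theirs, and ESRRA libraries moved up in Huh7 and down in HCCLM3 without overlap. With limma the call for NR1H3 was lost (adjusted p from 0.133 to 0.192), as was that for ESRRA over all features above 0 (0.0562). Groups of 3 libraries were not examined for single outlying samples.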

How the results depend on the processing

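Of 779 alternative values for the 40 receptor results, 729 kept their direction and side of the threshold, 22 lost the call, 9 gained it and 19 changed sign, all of these last for differences that had not passed. DESeq2, upper quartile factors and no filter left the number of receptors that passed at 3, 5, 4 and 9 in the Huh7 knockdown, the HCCLM3 knockdown, the difference between the lines and the baseline, the last with NR1I3 counted in. In the Huh7 knockdown limma on log2(FPKM + 0.1) gave 1 receptor, and leaving out single libraries gave 2 to 5. In the HCCLM3 knockdown limma gave 3 with either pseudocount and 2 over all features above 0, and leaving out single libraries gave 4 to 6. For the difference between the lines limma over all features gave 2, and leaving out single libraries 4 to 5. With a pseudocount of 1 the log2 change of NR1I2 in Huh7 was 0.33 and that of NR0B2 in HCCLM3 −0.45.

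Changes of sign occurred among differences that had not passed, the widest for NR5A2 between the lines, from −0.38 to 0.15. Upper quartile factors gave 0.013 for NR1H3 and 0.0017 for RXRA in Huh7. In HCCLM3 limma gave NR1H4 −0.025 with a pseudocount of 1, with and without the filter, and −0.049 with 0.1, and for the difference of NR5A2 0.15 with a pseudocount of 1, with and without the filter. Without single libraries the Huh7 change ranged from −0.053 to 0.030 for NR1H3 and from −0.090 to 0.030 for RXRA, the HCCLM3 change from −0.17 to 0.026 for NR1I2 and from −0.044 to 0.31 for NR1H4, and the difference for PPARG from −0.079 to 0.012. The cause was not tested.

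In the order per length, 8 of 10 receptors kept their rank in Huh7 si-NC with CPM per implied length, and without single libraries 8 in that group, 6 to 10 in Huh7 with si-circASH2, and 8 to 10 in each HCCLM3 group. Replicate numbers gave no sign of pairing the libraries: the correlation of same-numbered deviations over 14241 genes lay between −0.07 and 0.04. For libraries of different number it lay between −0.10 and 0.09. The labels do not say whether libraries were paired, and groups of 3 cannot settle it. With a replicate block the receptors that passed were again 3, 5, 4 and 9, and the features 5349, 5215, 3533 and 14424. The difference between the lines and the baseline were not run with each line alone. Counts under about 10 per library, as for NR1I3 and for NR0B2 in HCCLM3 with si-circASH2, limit what depth can show.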

Other observations

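Among the other nuclear receptors, some genes chosen after their values were seen marked the lines sharply. NR0B1, which encodes DAX-1, the closest relative of SHP, was at 0 in all Huh7 libraries and at 45.2 ± 2.76 CPM in HCCLM3 with si-NC, and it rose there to 61.2 ± 3.24 CPM with si-circASH2 (log2 0.44 ± 0.06, adjusted p = 2.63e-05), while NR0B2 fell. NR6A1, an orphan receptor of germ cells and early embryos, stood at 137 CPM in Huh7 and 2.15 CPM in HCCLM3 with si-NC. It fell in Huh7 by 0.38 on the log2 scale (SE 0.05, adjusted p = 2.18e-06) and rose in HCCLM3 by 0.37 ± 0.13 (adjusted p = 0.0372), and the effects differed (0.75 ± 0.14, adjusted p = 0.000422).

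In bile acid metabolism, KLB, the co-receptor through which FGF19 acts, fell in both lines, from 211 to 161 CPM in Huh7 (log2 −0.39 ± 0.05, adjusted p = 3.80e-07) and in HCCLM3 from 2.10 to 1.0 CPM (−1.06 ± 0.16, adjusted p = 1.72e-05). BAAT, which joins bile acids to amino acids, was higher in HCCLM3 at baseline, at 0.770 CPM in Huh7 and 26.4 CPM in HCCLM3 with si-NC, and rose in HCCLM3 to 41.7 CPM (0.66 ± 0.08, adjusted p = 1.79e-06). CIDEC, a lipid droplet gene of the PPAR list, rose in Huh7 from 4.74 to 9.79 CPM (1.05 ± 0.10, adjusted p = 2.19e-08) and fell in HCCLM3 from 45 to 30.9 CPM (−0.54 ± 0.07, adjusted p = 2.96e-06), with a difference of −1.59 ± 0.12 (adjusted p = 2.29e-09). These genes were also chosen after their values were seen.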
